A study of Gallus gallus with 6 samples.

Results

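The genes described here encode the subunits of AMP-activated protein kinase (AMPK) and STK11, which encodes LKB1, the main kinase that switches AMPK on. They were found by symbol in a table of 6919 RefSeq transcripts from 6542 gene symbols, and all 8 had an entry: the catalytic alpha subunits PRKAA1 and PRKAA2, the scaffold beta subunits PRKAB1 and PRKAB2, the nucleotide-binding gamma subunits PRKAG1, PRKAG2 and PRKAG3, and STK11. Each was listed once apart from PRKAG2, whose 3 rows were summed, so that 10 transcripts were used. RNA came from hearts of Dekalb white chick embryos at Hamburger-Hamilton stage (HH) 29. In 3 OFT-banded embryos the outflow tract (OFT) had been tied with a suture at HH21, which raises the pressure load, and the 3 sham embryos were threaded with a suture that was not left in place. Each library came from 1 heart, and all hearts went through the same depletion of globin transcripts. The columns identify hearts 6, 11 and 17 as OFT-banded and hearts 38, 48 and 42 as sham. The labels give heart as the tissue of all 6 samples, but outflow tract as the sample type of the OFT-banded ones. The paper states that whole hearts were sequenced.

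AMPK senses a shortage of cellular energy. It is a complex of an alpha, a beta and a gamma subunit; AMP or ADP bound to gamma favours the phosphorylation of the activation loop of alpha by LKB1, and the beta subunit holds the complex together and carries a glycogen-binding module. The active kinase slows the synthesis of fatty acids, sterols and protein and favours fuel oxidation. In mammals PRKAA2 and PRKAB2 are the forms most associated with heart and skeletal muscle, PRKAG3 is found mainly in fast skeletal muscle, and mutations of human PRKAG2 cause a cardiomyopathy with glycogen storage.

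Values are reads per kilobase of transcript scaled to the depth of each library (RPKM), a unit already corrected for transcript length, so that levels can be set side by side between genes. The paper reports RNA degradation from freeze-thaws and globin depletion before sequencing. Its effect on the levels of genes beside each other was not tested. From the steps between low microRNA values, depth was estimated at 30.1, 41.2 and 36.1 M reads (1000000 reads each) in OFT-banded hearts 6, 11 and 17 and at 32.5, 37.5 and 21.2 M reads in sham hearts 38, 48 and 42. These depths count 1 step as 1 read. Had each step been a read pair counted as 2 reads, they would be 42.4 to 82.4 M reads, and the files alone do not tell which, so that the reads per kilobase given here are counted units, either reads or pairs. The range of mapped reads stated in the paper is nearer to the doubled depths. A level of 1 RPKM stood for 21.2 to 41.2 such units per kilobase. The hearts carried the defining transcripts of cardiac muscle, with ACTC1, cardiac alpha-actin, between 12174 and 19029 RPKM and TNNT2, cardiac troponin T, between 3854 and 7845 RPKM. Smooth muscle markers, which the outflow tract wall also carries, summed to 220.5 to 346 RPKM in OFT-banded hearts and 187.5 to 242.5 RPKM in sham hearts. Of the 4 tested, 2 were higher and 2 lower by value, beside 36.8% and 63.2% of all tested transcripts. TAGLN, transgelin, had the smallest p of them, at 140.3, 194.5 and 225 RPKM in OFT-banded hearts 6, 11 and 17 and 154, 91.9 and 124 RPKM in sham hearts 38, 48 and 42 (unadjusted p = 0.0340 and adjusted p = 0.543 from limma). In bulk RNA, fewer cells of a type and less RNA per cell cannot be told apart.

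The level of the 8 genes spanned a wide range, and the order by mean RPKM over the 6 hearts was PRKAG1, PRKAB1, STK11, PRKAB2, PRKAG3, PRKAA1, PRKAA2 and PRKAG2. The place of PRKAG2 is that of its listed values, which come from repeated rows that are low throughout the table. PRKAG1, at 46.5 ± 4.4 RPKM (SD, n = 6), exceeded 73.0% of all gene symbols, and PRKAA2, at 4.58 ± 1.75 RPKM (SD, n = 6), exceeded 38.7%. In 4 of the 7 pairs of neighbours the order held in all 6 hearts: PRKAG1 over PRKAB1, PRKAB2 over PRKAG3, PRKAA1 over PRKAA2 and PRKAA2 over PRKAG2. Each of these 4 reached p = 0.0312, the smallest that the exact sign-flip permutation test of 6 hearts can give, and 0.0547 after Benjamini-Hochberg adjustment over the 7 pairs, which misses 0.05. The pairs were set by the mean levels of the same 6 hearts, so these p-values describe how steady the order was from heart to heart. In the other 3 pairs the order did not hold in every heart, and these missed 0.05 too. PRKAB1 was above STK11 in 5 of 6 hearts (exact sign-flip permutation test, p = 0.0938), STK11 above PRKAB2 in 5 of 6 (p = 0.0625, same exact test) and PRKAG3 above PRKAA1 in 4 of 6 (p = 0.125, same exact test).

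**Figure D1:**
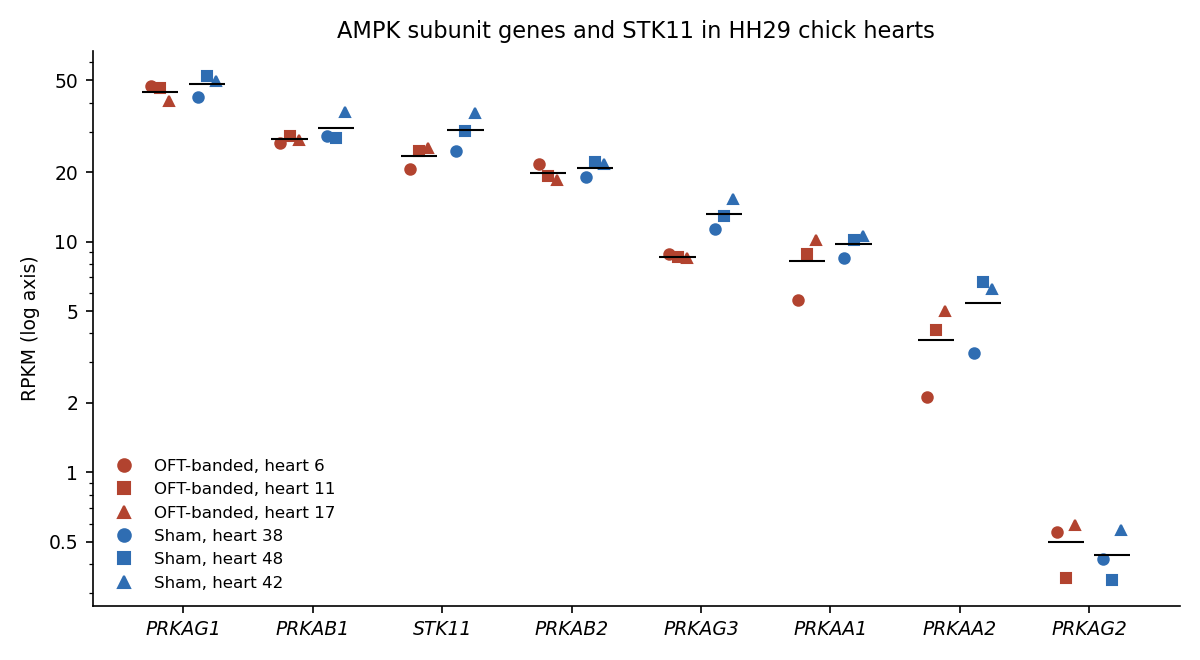
RPKM (log axis) of each gene in each heart, ordered by mean level, with OFT-banded hearts on the left and sham hearts on the right of each gene and a line at each group mean. PRKAG1 lies highest and the summed PRKAG2 lowest as listed, at 0.34 to 0.59 RPKM from repeated rows, and PRKAG3 is the gene whose groups do not overlap.

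PRKAA1, the alpha subunit of most mammalian tissues, was the more abundant catalytic subunit in every heart. It was at 5.58, 8.88 and 10.2 RPKM in OFT-banded hearts 6, 11 and 17 and at 8.49, 10.2 and 10.6 RPKM in sham hearts 38, 48 and 42. Heart 6 stood lowest, and the groups overlapped. PRKAA1 lies on the Z sex chromosome of the chicken. HINTW, a multicopy gene of the W chromosome that females carry, was between 743 and 1215 RPKM in all 6 hearts, with no heart near 0.

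PRKAA2 was at 2.13, 4.13 and 4.99 RPKM in OFT-banded hearts 6, 11 and 17, against 3.29, 6.71 and 6.22 RPKM in sham hearts 38, 48 and 42. The groups overlapped here too, with heart 6 again lowest and, among the shams, heart 38 low. PRKAA2 varied most of the 8 genes: its highest value was 3.15 times its lowest, and its coefficient of variation of 38.2% over the 6 hearts exceeded that of 90.2% of the tested transcripts. That lowest value, in heart 6, corresponded to 64.1 reads per kilobase, and its highest, in heart 48, to 251.6.

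PRKAB1 was the more abundant beta subunit. Its level was 26.8, 28.8 and 27.7 RPKM in OFT-banded hearts 6, 11 and 17 and 28.7, 28.1 and 36.4 RPKM in sham hearts 38, 48 and 42. Heart 42 stood high, and the other 5 lay between 26.8 and 28.8 RPKM. PRKAB2 was at 21.8, 19.3 and 18.5 RPKM in OFT-banded hearts and at 19.1, 22.1 and 21.7 RPKM in sham hearts, in the same order of hearts. It was the steadiest of the 8 genes, with a coefficient of variation of 7.92% over the 6 hearts, and the groups overlapped widely.

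PRKAG1, the gamma subunit found in most mammalian tissues, was at 47.5, 46.1 and 40.6 RPKM in OFT-banded hearts 6, 11 and 17 and at 42.5, 52.3 and 49.9 RPKM in sham hearts 38, 48 and 42. Hearts of both groups interleaved, with a coefficient of variation of 9.47%. PRKAG3 was at 8.81, 8.58 and 8.47 RPKM in the OFT-banded hearts, against 11.4, 13.0 and 15.3 RPKM in the sham hearts. The groups did not overlap, the OFT-banded hearts being lower and close together (SD 0.173 RPKM) while the sham hearts were spread (SD 2.00 RPKM). In a later assembly than the one the authors aligned to, the span of PRKAG3 overlaps that of CYP27A1, a sterol hydroxylase not analysed here. The span of PRKAB2 likewise overlaps that of FAM78B, also not analysed here. That of PRKAG2 overlaps 3 loci, LOC112531929, LOC121109583 and MIR12239, which were not analysed either. The libraries kept strand, but whether the counting used it is not given in the sources used here.

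PRKAG2 was near the floor of the table. Its rows summed to 0.55, 0.35 and 0.59 RPKM in OFT-banded hearts 6, 11 and 17 and to 0.42, 0.34 and 0.56 RPKM in sham hearts 38, 48 and 42, a difference of 0.0567 RPKM (exact permutation test, two-sided, p = 0.7). The 3 transcripts were unequal: NM_001278142 lay between 0.24 and 0.42 RPKM, NM_001278143 between 0 and 0.28 RPKM, and NM_001030965 is listed at 0 in every heart. These sums stood for 11.9 to 21.3 reads per kilobase. The 3 transcripts belong to 1 gene, and the way the table treats such genes differed from the rest: the 45 symbols listed 3 times had a median summed level of 0.0483 RPKM and the 179 listed 2 times a median of 0.148 RPKM, against 14.4 RPKM for the 6290 symbols listed once. The summed PRKAG2 exceeded 75.6% of the symbols listed 3 times but 21.9% of those listed once. STRADA, the pseudokinase partner that LKB1 needs for its activity in mammals, is listed 5 times and at 0 in every heart. The part of repeated listing in the low level of PRKAG2 was not tested, so the deposited values give no firm order of PRKAG2 among the gamma subunits.

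STK11 was expressed at 20.6, 24.7 and 25.4 RPKM in OFT-banded hearts 6, 11 and 17 and at 24.8, 30.2 and 36.0 RPKM in sham hearts 38, 48 and 42. The groups met at the edge, with OFT-banded heart 17 just above sham heart 38. Within each heart STK11 was 1.68 to 2.67 times the summed alpha subunits, its substrates.

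Summed over each subunit class, alpha transcripts were the scarcest in every heart. The alpha sum was 7.71, 13.0 and 15.2 RPKM in OFT-banded hearts 6, 11 and 17, against 11.8, 16.9 and 16.8 RPKM in sham hearts 38, 48 and 42. The beta sum lay between 46.2 and 48.5 RPKM in OFT-banded hearts and between 47.7 and 58.1 RPKM in sham hearts. With PRKAG2 as listed, the gamma sum lay between 49.6 and 56.8 RPKM in OFT-banded hearts and between 54.3 and 65.8 RPKM in sham hearts. Gamma exceeded beta in every heart, by 1.07 to 1.31 times, and beta exceeded alpha by 2.97 to 6.29 times, the widest gap being in heart 6. The groups overlapped in all 3 sums, with differences of -3.18, -4.43 and -8.05 RPKM for alpha, beta and gamma (exact permutation tests, two-sided, p = 0.3 each and 0.3 after adjustment over the 3). With 3 hearts against 3 this test cannot give a p below 0.1, so it could not reach 0.05. The size of the differences rested on single hearts, since alpha was -1.06 RPKM without heart 6 and beta -1.37 RPKM without heart 42. With median-ratio scaling beta was -1.91 RPKM and gamma -5.06 RPKM. In TPM beta was -7.77 TPM and gamma -13.1 TPM, a larger unit that cannot be set directly beside RPKM. The RPKM of a heart summed to 713339 to 780609, under the total that TPM sets. All 3 sums were lower in OFT-banded hearts in these settings and without each heart in turn. The sums were not fitted with the red cell covariate described below.

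Within a class, shares do not depend on how the hearts are scaled to each other. The gamma shares take PRKAG2 at its listed values, 0.519% to 1.19% of the gamma sum. PRKAG3 held 15.5%, 15.6% and 17.1% of the gamma sum in OFT-banded hearts 6, 11 and 17, against 20.9%, 19.8% and 23.3% in sham hearts 38, 48 and 42, again with no overlap. PRKAG1 made up most of the remainder, at 83.0% ± 1.11 in OFT-banded hearts and 77.9% ± 1.95 in sham hearts (SD, n = 3 each). PRKAG3 was thus at 0.186, 0.186 and 0.209 times PRKAG1 in the OFT-banded hearts and at 0.267, 0.248 and 0.307 times PRKAG1 in the sham hearts, a difference of -0.50 in the log2 ratio. The exact permutation test gave p = 0.1, the smallest possible for 3 hearts against 3, and 0.4 after adjustment over the 4 ratios compared.

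The alpha and beta shares did not part the groups. PRKAA2 held 30.8% ± 2.77 of the alpha sum in OFT-banded hearts and 34.9% ± 6.20 in sham hearts (SD, n = 3 each), and the log2 ratio of PRKAA2 to PRKAA1 differed by -0.26 (exact permutation test, p = 0.3, adjusted 0.6), with -0.49 without heart 38 and -0.11 without heart 48. PRKAB2 held 41.7% ± 2.75 of the beta sum in OFT-banded hearts and 40.4% ± 3.37 in sham hearts (SD, n = 3 each), and the log2 ratio of PRKAB2 to PRKAB1 differed by 0.07 (exact permutation test, p = 0.5, adjusted 0.667). For STK11 over the alpha sum the log2 difference was 0.02 (exact permutation test, p = 1, adjusted 1). Leaving out heart 6 turned the differences of these last 2 ratios, to -0.021 for PRKAB2 over PRKAB1 and to -0.17 for STK11 over alpha. That of PRKAB2 over PRKAB1 also turned without heart 42 (to -0.02), and that of STK11 over alpha without heart 48 (to -0.06).

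**Figure D2:**
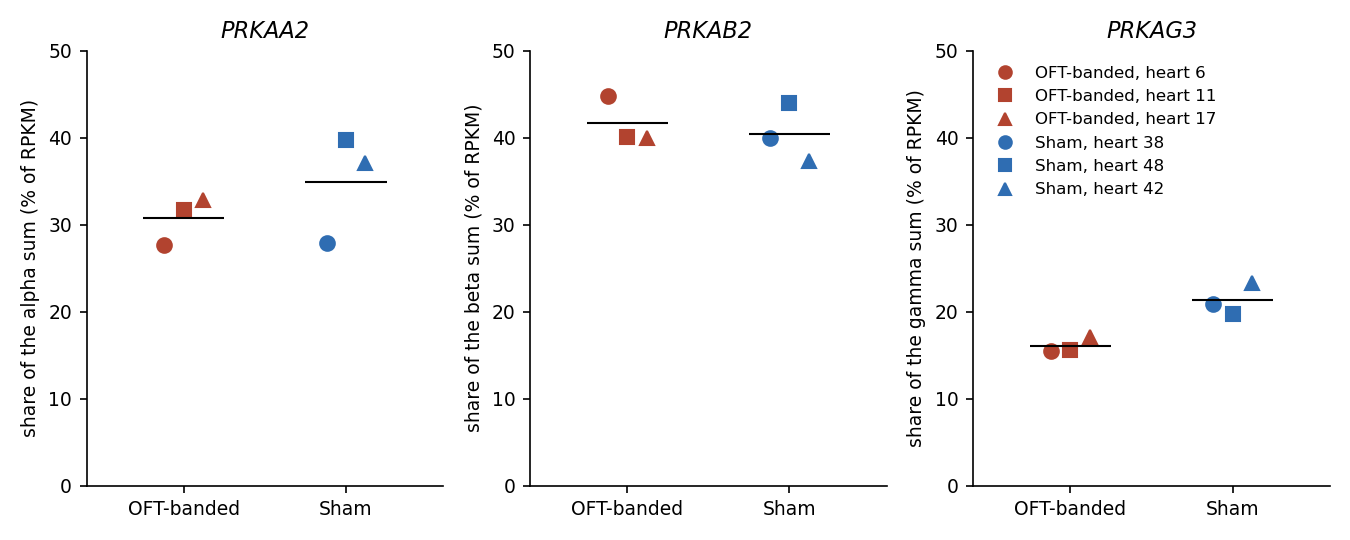
Share of PRKAA2, PRKAB2 and PRKAG3 in the summed RPKM of their subunit class (%), for each OFT-banded heart (left) and sham heart (right), with a line at each mean. The PRKAG3 shares of 15.5% to 17.1% in OFT-banded hearts lie below the 19.8% to 23.3% of sham hearts, while the PRKAA2 and PRKAB2 shares overlap.

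Between the 21 pairs of tested genes, Pearson's r over the 6 hearts ran from -0.19 to 0.93. It was highest for PRKAA1 with PRKAA2 (r = 0.933, exact permutation p = 0.00556; Spearman's rho = 0.829, exact permutation p = 0.0583), followed by PRKAG1 with PRKAB2 (r = 0.916, exact permutation p = 0.00278; rho = 0.943, exact permutation p = 0.0167). Adjusted over the 21 pairs, these Pearson p-values were 0.0583 each and the Spearman p-values 0.306 and 0.233, so neither passed. The 2 hearts farthest from the median of a single gene of the pair, PRKAA1 or PRKAB2, were then left out. This gave r = 0.826 for the alpha pair and 0.838 for PRKAG1 with PRKAB2. PRKAA1 and PRKAG1 had r = 0.04 (exact permutation p = 0.958; rho = 0.143, exact permutation p = 0.803). STK11 and PRKAG3 had r = 0.860 (exact permutation p = 0.0222, adjusted 0.117; rho = 0.600, exact permutation p = 0.242, adjusted 0.679). Without sham hearts 48 and 42, the 2 farthest from the median of PRKAG3, r was 0.181. Leaving out the hearts farthest from the median of STK11 was not tried. The 6 hearts come from both groups, and 3 hearts are too few for a correlation within one.

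**Figure D3:**
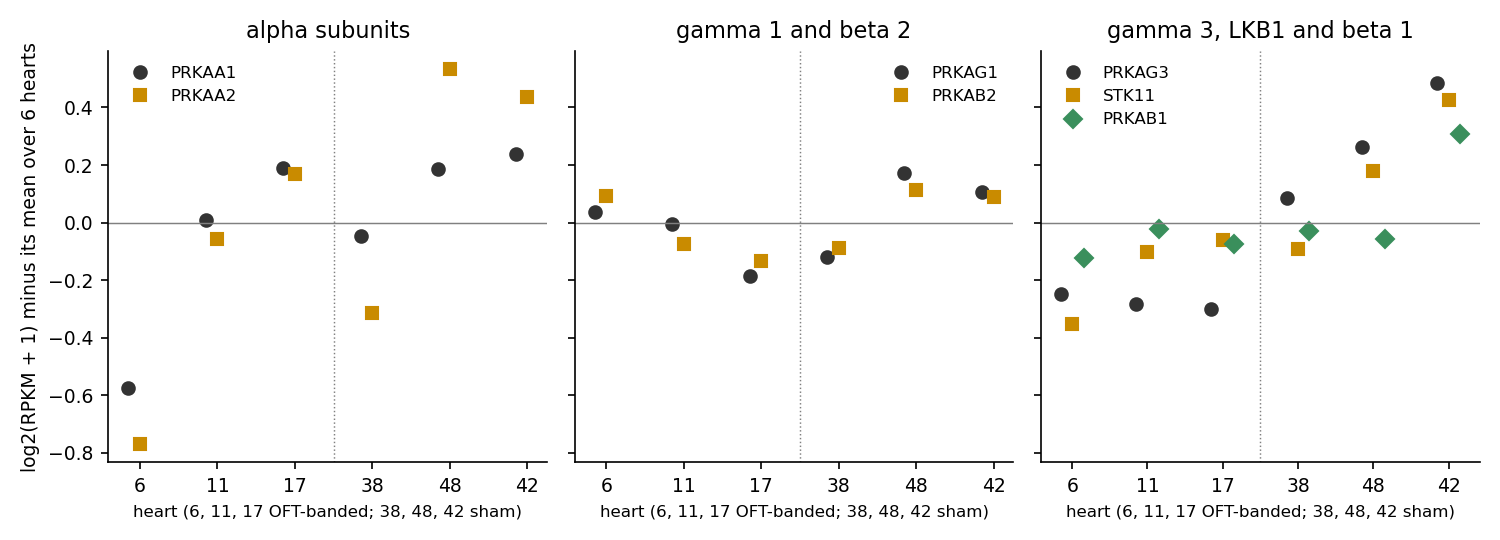
Deviation of log2(RPKM + 1) from the mean over 6 hearts, for each heart, in 3 panels of genes. The alpha subunits are lowest in heart 6, PRKAG1 and PRKAB2 are lowest in heart 17, and PRKAG3 is below its mean in the 3 OFT-banded hearts and above it in the 3 sham hearts.

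Heart 6 held the lowest value of 4 of the 7 tested genes (PRKAA1, PRKAA2, PRKAB1 and STK11) and heart 17 of the other 3, while heart 42 held the highest value of 4 and heart 48 of 3. For hearts 6 and 42 this was also common elsewhere, since 42.2% of all tested transcripts were lowest in heart 6 and 36.0% were highest in heart 42. It was less common for the other hearts named, with 13.9% of all tested transcripts lowest in heart 17 and 13.7% highest in heart 48.

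Whether banding changed the level of these genes was tested in a limma fit of log2(RPKM + 1) to every transcript averaging 1 RPKM or more, 4726 in number, which left out PRKAG2. Adjusted p-values under 0.05 were found for none of the 7 tested genes and for 0 transcripts in all (0%). Unadjusted, 405 transcripts (8.57%) were under 0.05. Of these, 38.3% were higher in OFT-banded hearts. Other settings called other numbers of transcripts, and the share higher among them was 56.9% of 401 with median-ratio scaling, 22.2% of 419 when globin genes were removed before scaling and 59.7% of 288 in a model with a red cell covariate. In simulated hearts with the spread of the real ones, limma picked up 84.0% of the genes given a log2 change of 1 and 96.0% of those given 2. Both sizes exceed the change seen in any of the 7 tested genes, and no smaller change was simulated. The simulation therefore does not tell how often changes of their size would be found. Its genes varied independently and 100 were changed at each size, so 84.0% and 96.0% need not hold for the real hearts. In the real fit the globin HBE, with a log2 fold change of -1.58, and fast troponin C, TNNC2, with 0.95, were not called (adjusted p = 0.543 from limma for each).

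PRKAG3 had the smallest p of the 7, with a log2 fold change of -0.55 (standard error 0.14, 95% confidence interval -0.88 to -0.23, unadjusted p = 0.00500 and adjusted p = 0.543 from limma). By p it ranked 32nd of the 4726 transcripts. It was the 1 tested gene of the 7 without overlap between the groups, where 16.3% of all tested transcripts had no overlap and 11.0% were lower without overlap. Without each heart in turn its change stayed between -0.65 and -0.45. STK11 had a log2 fold change of -0.34 (standard error 0.16, 95% confidence interval -0.71 to 0.02, unadjusted p = 0.0633 and adjusted p = 0.543 from limma). Without each heart in turn it ran from -0.47 (without heart 38) to -0.22 (without heart 42).

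The remaining genes had intervals that reached both sides of 0. The log2 fold change of PRKAA2 was -0.44 with an interval of -1.19 to 0.32, and that of PRKAA1 was -0.25 with an interval of -0.76 to 0.26 (adjusted p = 0.618 and 0.655 from limma). Without heart 6 they went to -0.16 for PRKAA2 and -0.03 for PRKAA1. PRKAB1, PRKAG1 and PRKAB2 had log2 fold changes of -0.15, -0.10 and -0.08 (adjusted p = 0.646, 0.706 and 0.785 from limma). Without heart 42 that of PRKAB1 went to -0.03. With these intervals, a fall of PRKAG1 beyond -0.37 or a rise beyond 0.16 on the log2 scale lay outside the 95% range. All 7 genes were thus lower by value, as were 63.2% of all tested transcripts (36.8% were higher), and their median log2 fold change was -0.25 beside -0.07 for all. They stayed lower with TPM, with median-ratio scaling and with the globin genes left out, the smallest being PRKAB2, at -0.01 with median-ratio scaling.

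**Figure D4:**
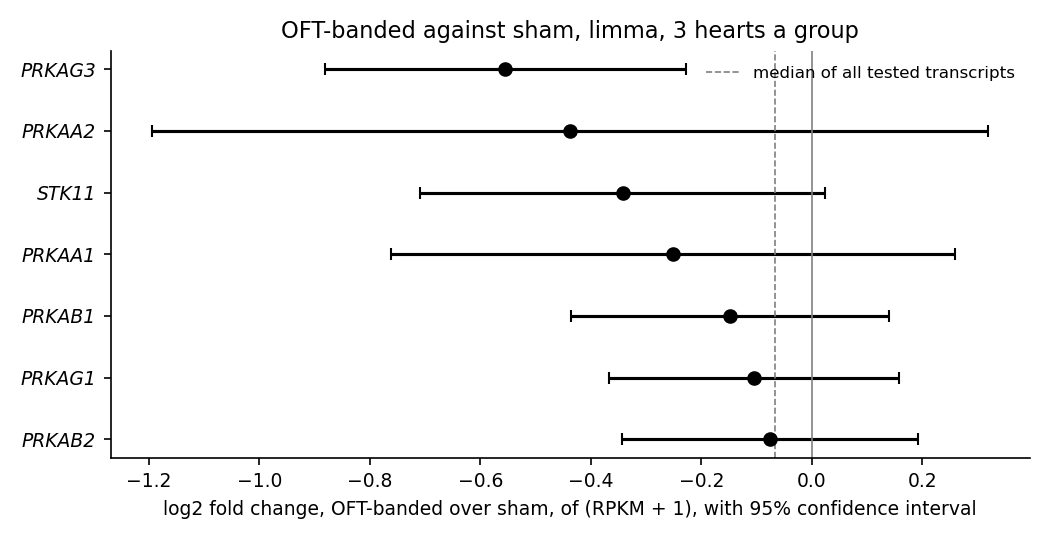
Log2 fold change of (RPKM + 1) between OFT-banded and sham hearts for the 7 tested genes, with 95% confidence intervals from limma, 3 hearts a group. The dashed line marks the median of all tested transcripts, -0.07, and the interval of PRKAG3, -0.88 to -0.23, is the 1 that stays below 0.

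Red cell transcripts were lower by value in OFT-banded hearts. Of 15 red cell markers with an entry, all 11 tested ones were lower, beside 63.2% of all tested transcripts. Groups did not overlap in 3 of the 11 (HBE, HBG1 and GFI1B), beside 11.0% of all tested transcripts lower without overlap. The summed level of the markers was 6230 to 12332 RPKM in OFT-banded hearts, against 16468 to 41984 RPKM in sham hearts. Most of that sum was HBE and HBG1, globin transcripts present after the globin depletion. By symbol, the globins that the paper lists as depleted include HBG1 and HBG2 but not HBE. The markers thus mix depleted globins with transcripts that the depletion was not aimed at. The 4 untested markers, all globins, did not exceed 0.83 RPKM. HBE, an embryonic globin, had the smallest p of the list, at 6490.2, 5303 and 10572 RPKM in OFT-banded hearts 6, 11 and 17, against 18595, 14107 and 36922 RPKM in sham hearts 38, 48 and 42 (unadjusted p = 0.00511 and adjusted p = 0.543 from limma). On log2(RPKM + 1) the mean of the 11 was 4.29, 4.76 and 5.36 in OFT-banded hearts 6, 11 and 17 and 4.98, 5.99 and 6.66 in sham hearts 38, 48 and 42. With this mean as a covariate PRKAG3 kept its direction, at -0.39 (adjusted p = 0.793 from limma), and STK11 went to -0.03 (adjusted p = 0.983 from limma). PRKAA1, PRKAA2 and PRKAB1 turned to 0.094, 0.19 and 0.0017. The covariate itself is lower in OFT-banded hearts, so that this fit can also take away part of a difference due to banding.

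Of the cardiomyocyte markers 9 of 15 were higher and 6 lower by value, beside 36.8% and 63.2% of all tested transcripts. In 2 of them, both higher, the unadjusted p from limma was under 0.05, beside 3.28% of all tested transcripts, and none passed adjustment. Their summed level, most of it from a few abundant genes such as MYL2 and ACTC1, was 73595 to 79308 RPKM in OFT-banded hearts, against 53463 to 68122 RPKM in sham hearts. NPPB, a natriuretic peptide, had the smallest p, at 2038, 3662 and 7027 RPKM in OFT-banded hearts and 2053, 1916 and 1124 RPKM in sham hearts, with overlap (unadjusted p = 0.0312 and adjusted p = 0.543 from limma). Endothelial and mesenchymal markers had median log2 fold changes of 0.01 and 0.07. The part of any of these markers in the levels of the AMPK genes was not tested beyond the red cell covariate.

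Since PRKAG3 is a skeletal muscle gene in mammals, markers of fast skeletal muscle were set beside it. Their summed level was 2339 to 3129 RPKM in OFT-banded hearts, against 1402 to 1839 RPKM in sham hearts. Most of that sum came from TNNC2, MYL1 and MYL10. Of 9 tested markers 7 were higher by value, the opposite direction to PRKAG3, beside 36.8% of all tested transcripts. Lower by value, like PRKAG3, were TNNI2 and CKM, with overlap (log2 fold changes of -0.41 and -0.37). In 4 markers the unadjusted p from limma was under 0.05, all higher, beside 3.28% of all tested transcripts. TNNC2, fast troponin C, was at 1009, 868 and 928 RPKM in OFT-banded hearts and at 360.8, 632 and 491 RPKM in sham hearts, and PVALB, a calcium buffer, at 29.8, 30.7 and 45.6 against 20.7, 16.6 and 17.2 RPKM. The myogenic regulators were at or near the floor, with MYF5 listed at 0 in every heart, MYOD1 and MYOG not above 0.68 RPKM and MYF6 not above 1.13 RPKM.

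Of 14 LKB1 partners and other kinases or phosphatases of AMPK, 7 had an entry and 6 were tested, all 6 lower by value beside 63.2% of all tested transcripts, with a median log2 fold change of -0.20 and none past the adjusted threshold. In 2 of the 6 the groups did not overlap, beside 11.0% of all tested transcripts that were lower without overlap. CAB39L, an MO25 scaffold protein of the LKB1 complex, was at 14.8, 23.8 and 20.4 RPKM in OFT-banded hearts, against 20.7, 31.0 and 26.5 RPKM in sham hearts, with overlap (log2 fold change -0.39, adjusted p = 0.546 from limma). PPM1B, a protein phosphatase, did not overlap, at 31.9, 42.7 and 43.1 RPKM in OFT-banded hearts and 43.6, 44.6 and 52.8 RPKM in sham hearts (log2 fold change -0.26, adjusted p = 0.558 from limma). TAB1, a partner of the kinase TAK1, did not overlap either, at 26.7 to 29.3 RPKM in OFT-banded hearts and 29.7 to 31.9 RPKM in sham hearts. The phosphatase subunits PPP2CA and PPP2CB, chosen after their values were seen, were above every AMPK subunit, at 164 to 192 RPKM for PPP2CA and 266 to 325 RPKM for PPP2CB.

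Of 12 relatives of AMPK that LKB1 also activates, 2 were tested and they lay on opposite sides of 0. SNRK was at 4.11, 5.76 and 5.95 RPKM in OFT-banded hearts, against 5.54, 8.57 and 8.54 RPKM in sham hearts (log2 fold change -0.44, adjusted p = 0.543 from limma). SIK1, a salt-inducible kinase, was at 57.5, 69.4 and 103 RPKM in OFT-banded hearts and at 59.5, 51.0 and 78.0 RPKM in sham hearts (log2 fold change 0.26, adjusted p = 0.661 from limma). SIK1 thus exceeded the alpha sum in every heart.

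Of 25 proteins that AMPK phosphorylates directly, 7 were tested, all 7 lower by value (63.2% of all tested transcripts), with a median log2 fold change of -0.29, none past the adjusted threshold and 1 with an unadjusted p under 0.05, beside 5.29% of all tested transcripts in that direction. SREBF1, which drives lipid synthesis genes, was that gene, at 7.57, 7.42 and 5.65 RPKM in OFT-banded hearts, against 8.06, 10.1 and 12.8 RPKM in sham hearts, without overlap (log2 fold change -0.51, unadjusted p = 0.0337 and adjusted p = 0.543 from limma). FNIP1, a folliculin-interacting protein that binds AMPK, was low, at 0.53, 1.29 and 1.63 RPKM in OFT-banded hearts and 1.06, 2.26 and 2.14 RPKM in sham hearts. TBC1D1, a regulator of glucose transporter traffic, was at 14.4 to 19.9 RPKM in OFT-banded hearts and 17.4 to 21.1 RPKM in sham hearts. PPARGC1A, a coactivator of mitochondrial genes chosen after its values were seen, ranged widely, from 1.06 to 5.89 RPKM in OFT-banded and 2.22 to 6.55 RPKM in sham hearts, and like PRKAA2 it was lowest in heart 6 and, among shams, in heart 38. Of the mTOR arm, which AMPK restrains, RPS6KB1, the S6 kinase, was the tested gene, at 9.12, 14 and 13.9 RPKM in OFT-banded hearts and 13.7, 17.03 and 21.6 RPKM in sham hearts (log2 fold change -0.47, adjusted p = 0.543 from limma).

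**Figure D5:**
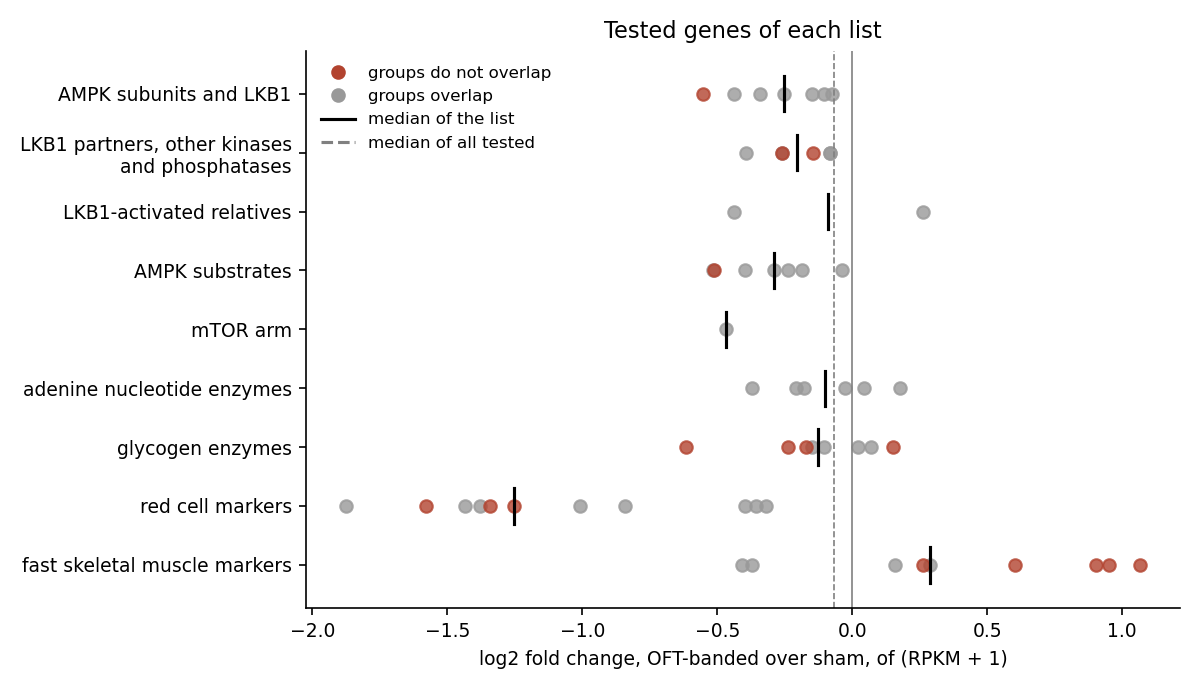
Log2 fold change of (RPKM + 1) between OFT-banded and sham hearts for each tested gene, 1 row per gene list, with red points where the groups do not overlap, a black mark at the median of the list and a dashed line at the median of all tested transcripts, -0.07. The AMPK row lies between -0.55 and -0.08, the red cell row has a median of -1.25 and the fast skeletal muscle row one of 0.29.

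Likeness over hearts was also measured for 4 of the genes, as Pearson's r of log2(RPKM + 1) over the 6 hearts against every other tested transcript, as a description with no test. For PRKAG3 the nearest were AP3M1, an adaptor complex subunit (0.991), FLOT2, a flotillin (0.988), and PDCD4, a translation inhibitor (0.986), and 0.847% of the other transcripts exceeded 0.95. For PRKAA2 the nearest were SUGP2, CACNA2D1 and FNIP1 (0.999, 0.999 and 0.998), but 5.84% of transcripts exceeded 0.95, so that such values were common. For STK11 they were RAB3IL1, PLEKHA3 and ADA (0.997, 0.996 and 0.995), with 4.30% above 0.95. The pattern of PRKAG1 was rarer: PERP1 and LYRM1 (0.991 and 0.989) were the 2 transcripts above 0.95, followed by FSTL4 (0.948).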

How the data were processed

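Per the paper and the labels, libraries were strand-specific and paired-end; scythe and sickle did the trimming, TopHat the alignment (galGal4) and HTSeq the counting, in versions not given in the sources used here. The deposited values are RPKM, made by the authors from the HTSeq output. Columns name the group but no numbered sample, so hearts were grouped by column name. Depth came from microRNA rows, whose low values, times the length in a RefSeq table of assembly GRCg7b, were whole numbers of reads or read pairs within 0.1 for at least 97.4% of values. Transcript lengths were not used, so no count test was run. limma 3.58.1 in R 4.3.3 (intensity trend, Benjamini-Hochberg) was run on log2(RPKM + 1), which understates changes of low genes, and checked on simulated data with 100 genes changed at each size (10 unchanged genes were also called). Exact tests ran in Python 3.11.15 with numpy 2.4.6 and are two-sided. P-values rest on 3 hearts a group. The genes and lists were chosen with earlier results of these data known. Named genes are the 8 members, of each list described up to 4 of the tested genes with the smallest p, the 3 transcripts most like 4 members and the reference genes. HINTW, STRADA, MYF5, MYF6, MYOD1, MYOG, MYL2, TNNI2, PPP2CA, PPP2CB, PPARGC1A, PGM1 and CKB were added after their values were seen. Alternatives were a pseudocount of 0.1, no filter, a minimum of 5 RPKM, no trend, robust moderation, TPM, removal of globin genes before rescaling, median-ratio scaling, rows summed by symbol, the red cell covariate, the highest PRKAG2 row alone, log2(RPKM + 1) before ratios and each heart left out.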

Additional observations from a re-analysis of the deposited data

How the results depend on the processing

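No transcript had an adjusted p under 0.05 in limma under any alternative. The count with an unadjusted p under 0.05 was 288 to 526 under the other settings, and 196 to 651 when 1 heart was left out, with 196 without sham heart 42 and 651 without sham heart 38. PRKAB2, PRKAG1, PRKAG3 and STK11 stayed lower in OFT-banded hearts under every alternative. With the red cell covariate, PRKAA1, PRKAA2 and PRKAB1 turned to log2 fold changes of 0.094, 0.19 and 0.0017; the cause was not tested. The highest PRKAG2 row alone gave -0.0167 RPKM in place of 0.0567. Leaving out 1 heart gave -0.021 to 0.18 for the log2 ratio of PRKAB2 to PRKAB1 and -0.17 to 0.16 for STK11 over alpha. PRKAA2 was below the minimum of 5 RPKM and has no value there. With 5 hearts the order test cannot give an exact p below 0.0625. No paired analysis was possible because the columns carry no replicate number of the labels. PRKAG2 rests on 11.9 to 21.3 reads or pairs per kilobase, and the part of counting noise in its spread was not tested.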

Other observations

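Glycogen, which the beta subunits bind, is handled by 8 tested enzymes, of which 5 were lower and 3 higher by value in OFT-banded hearts, with a median log2 fold change of -0.13, and 63.2% of all tested transcripts were lower. PYGB, the brain form of glycogen phosphorylase, was at 128, 139 and 93.3 RPKM in OFT-banded hearts 6, 11 and 17, against 154, 189.7 and 207 RPKM in sham hearts 38, 48 and 42, without overlap (log2 fold change -0.62, unadjusted p = 0.00909 and adjusted p = 0.543 from limma). PYGL, the liver form, was likewise lower without overlap, at 34.5 to 39.4 RPKM in OFT-banded hearts and 41.3 to 46.7 RPKM in sham hearts (unadjusted p = 0.0405 and adjusted p = 0.543 from limma). UGP2, which makes UDP-glucose, lay at 56.9 to 58.8 RPKM in OFT-banded hearts and 61.8 to 67.6 RPKM in sham hearts. PGM1, phosphoglucomutase, chosen after its values were seen, did not overlap in the other direction. It was at 59.5 to 70.6 RPKM in OFT-banded hearts and 55.7 to 58.7 RPKM in sham hearts. None passed the adjusted threshold, and 16.3% of all tested transcripts had groups without overlap.

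Among enzymes that set the levels of adenine nucleotides, which the gamma subunits sense, 6 were tested. By value 2 were higher and 4 lower, beside 36.8% and 63.2% of all tested transcripts. ADK, adenosine kinase, was at 59.96, 54.9 and 50.3 RPKM in OFT-banded hearts and 65.4, 58.3 and 67.5 RPKM in sham hearts (log2 fold change -0.21, adjusted p = 0.543 from limma). AK1, adenylate kinase, which makes AMP from ADP, was at 510, 378 and 323 RPKM in OFT-banded hearts and 366, 385 and 306 RPKM in sham hearts, with overlap. CKB, the brain form of creatine kinase, chosen after its values were seen, was at 1412 to 2140 RPKM in OFT-banded hearts and 1524 to 2035 RPKM in sham hearts, while CKM, the muscle form, was at 24.6 to 68.2 RPKM in OFT-banded hearts and 24.3 to 96.3 RPKM in sham hearts. Of the reference genes, GAPDH, TBP and EEF1A1 had log2 fold changes of 0.03, 0.01 and -0.11 (adjusted p = 0.937, 0.954 and 0.665 from limma). GAPDH and TBP overlapped between the groups. EEF1A1 did not, at 5737 to 6046 RPKM in OFT-banded hearts and 6191 to 6543 RPKM in sham hearts, beside 11.0% of all tested transcripts lower without overlap.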
